A study of Arabidopsis thaliana with 59 samples.

Results

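Transcripts of 8 hydrogen peroxide-removing enzymes were followed in rosette leaves of Arabidopsis thaliana: the ascorbate peroxidase genes APX1 (AT1G07890), APX2 (AT3G09640), APX3 (AT4G35000), SAPX (AT4G08390) and TAPX (AT1G77490), and the catalase genes CAT1 (AT1G20630), CAT2 (AT4G35090) and CAT3 (AT1G20620). They were chosen by locus name as the named members of both enzyme families, and all 8 were among the 20728 loci of the deposited table. Leaves came from 10 natural accessions that grow as spring annuals (Bur-0, CIBC-17, Col, HR-5, KNOX-18, Ler, NFA-10, SQ-8, Ts-1 and Ws-2). Each accession was kept in wet soil or taken through a mild drying, with 3 biological replicates in every accession and watering level, except that 2 arrays of KNOX-18 dry (numbers 1 and 3) were analysed. This gave 30 wet and 29 dry arrays.

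Plants of every group stood singly in pots of porous ceramic medium (about 150 ml) and had 10 h of light a day (a flux of 330 µmol m-2 s-1), days of 23 C, nights of 18 C and 60% relative humidity. Wet pots stayed near 90% of their water. Dry pots were brought down in daily steps to about 50% by day 5, after weighing before dawn. Plant age, the hour of harvest and what a replicate number marks (a day, a chamber or a batch) are not given in the labels.

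Hydrogen peroxide arises in leaves when chloroplasts reduce oxygen and when peroxisomes oxidise the glycolate of photorespiration. Ascorbate peroxidases reduce it to water with ascorbate, which the ascorbate-glutathione cycle regenerates, in the cytosol, on the peroxisomal membrane and in the chloroplast. Catalases need no reductant and break hydrogen peroxide down in peroxisomes, and in Arabidopsis CAT2 is known as a morning-phased and CAT3 as an evening-phased transcript.

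Values are log2 expression per locus and array as deposited, and array medians lay between 5.496 and 5.621. The level of a locus on such arrays depends on its probes, so levels are not compared between genes. Sequence differences between accessions under a probe cannot be told apart from differences in transcript level, and in whole leaves fewer cells of a type cannot be told apart from less RNA per cell. Over the 500 loci that best separated the accessions on these arrays, 59 of 59 arrays lay closest to their own accession, including a Col wet array (number 3) whose stock number in the labels is that of Ws-2. The loci were picked on these same arrays, so this closeness is not an independent check of the labels. The Ler wet array of number 3 stood apart, with the widest residual spread over all loci (0.40 against 0.28 for the next array, after replicate number was taken into account). All 4 measured leaf markers were present, with a summed level of 13.97 to 15.20 in wet and 14.21 to 15.29 in dry arrays. The summed root markers lay between 6.32 and 7.55 and the summed floral markers between 6.06 and 6.58. Sums were taken on the linear scale and set back to log2, so several dim loci add up. Singly, the root markers had mean levels of 3.70 to 5.09 and the floral markers of 3.51 to 4.44.

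The first comparison asked how the 8 transcripts changed with drying on average over the accessions. CAT2 showed the largest difference of the 8, a 1.67-fold rise, and APX3 rose 1.38-fold and SAPX 1.19-fold, while APX1 fell. In all, 3 members rose and 1 fell at a limma adjusted p under 0.05, against 29.3% of all loci called (15.5% higher and 13.8% lower in dry leaves). The median difference of the 8 members was 0.17 on the log2 scale, and that of all loci was -0.003. TAPX, CAT3, CAT1 and APX2 did not pass, of which CAT1 lay next to the threshold.

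APX1 encodes the main cytosolic ascorbate peroxidase. Its log2 values ran from 10.29 over a median of 11.22 to 11.67 in the 30 wet arrays and from 10.29 over 10.93 to 11.83 in the 29 dry arrays. The dry median lay below the wet one, and the groups overlapped over most of their ranges. The difference was -0.28 ± 0.09 (SE of the limma fit; adjusted p = 0.0195), a 1.21-fold lower level in dry leaves, and its sign was the same in 10 of 10 accessions. The lowest wet value was that of the Ler wet array of number 3, without which the difference was -0.31 ± 0.09 (adjusted p = 0.00474). The fall differed little in size between arrays of number 1 (-0.32 ± 0.08), number 2 (-0.27 ± 0.11) and number 3 (-0.27 ± 0.11). Fitted on one number at a time it passed in number 1 (adjusted p = 0.0197) and not in number 2 (adjusted p = 0.124) or number 3 (adjusted p = 0.222) and not with the arrays of number 3 left out (adjusted p = 0.089). On all arrays with replicate number as a block it passed (adjusted p = 0.00244).

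APX2 encodes a second cytosolic enzyme whose gene is known for its induction by heat and excess light. Its values stayed between 3.734 and 4.197 on all 59 arrays, a mean at the 16.2 percentile of all loci, so they cannot be told from background. The wet arrays had a median of 3.95 and the dry arrays a median of 3.95. The difference was -0.003 ± 0.03 (adjusted p = 0.957), with 6 accessions higher and 4 lower in dry leaves.

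APX3, anchored in the peroxisomal membrane, had the smallest adjusted p of the 8 members for drying. Its values were 9.02 to 10.21 with a median of 9.77 in wet arrays and 9.80 to 10.52 with a median of 10.19 in dry arrays. The wet range reached into the dry one, but within 7 of the 10 accessions every dry array lay above every wet array. Over all loci and accessions, 17.8% of cases had no overlap in either direction. The mean rise was 0.46 ± 0.06 (adjusted p = 1.63e-07; higher in 10 of 10 accessions). By accession it ran from 0.20 in Ler (0.35 without the Ler wet array of number 3) and 0.24 in Ts-1 to 0.65 in NFA-10 and 0.67 in KNOX-18.

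SAPX encodes an ascorbate peroxidase that is targeted to the chloroplast stroma and to mitochondria. Wet arrays held values from 6.35 over a median of 7.08 to 7.91, and dry arrays from 6.74 over 7.25 to 7.97. The ranges overlapped for most of their length, with the lowest wet arrays below all dry ones. SAPX was higher in dry leaves by 0.26 ± 0.07 (adjusted p = 0.00651; 9 of 10 accessions). Its difference was 0.007 ± 0.08 in arrays of number 1, against 0.40 ± 0.11 in number 2 and 0.31 ± 0.07 in number 3. Fitted on number 3 alone it passed (adjusted p = 0.0361), and without the Ler wet array of that number it did not (adjusted p = 0.0557). With the arrays of number 3 left out SAPX did not pass (adjusted p = 0.119), and on all arrays with replicate number as a block it passed (adjusted p = 0.00162).

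TAPX encodes the thylakoid-bound enzyme, which is closely related to SAPX. It ranged from 6.99 over a median of 8.27 to 9.74 in wet arrays and from 7.71 over 8.27 to 9.37 in dry arrays, so that the dry values lay inside the wet range. The difference was -0.04 ± 0.12 (adjusted p = 0.854) with a 95% confidence interval from -0.28 to 0.20, and 4 accessions were higher and 6 lower. The highest TAPX value of all 59 arrays was that of the Ler wet array that stood apart, and without it the difference was 0.02 ± 0.11 (adjusted p = 0.894; 5 of 10 accessions higher).

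**Figure D1:**
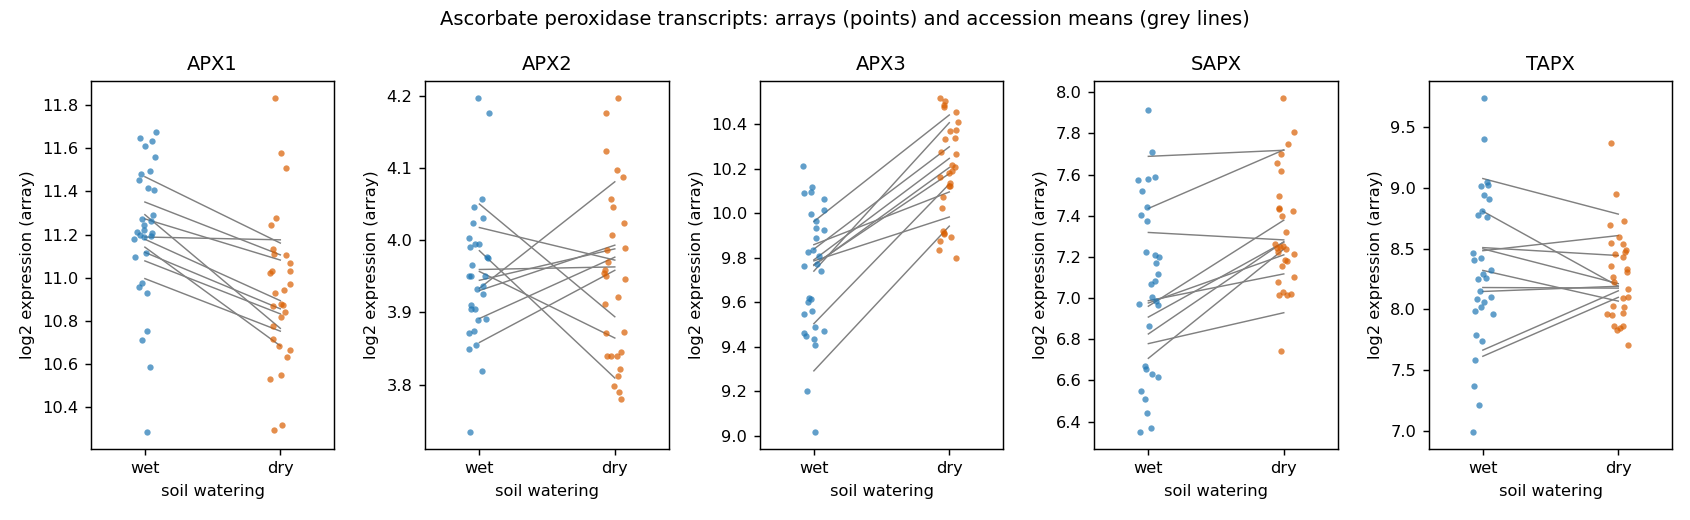
Log2 expression of the 5 ascorbate peroxidase genes in wet and dry soil, each panel on its own scale, with 1 point per array (30 wet, 29 dry) and a grey line joining the wet and dry means of each accession. The APX3 lines all rise and the APX1 lines all fall, while the APX2 lines cross within a range of 3.734 to 4.197.

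CAT2 encodes the catalase that accounts for most activity in photosynthetic leaves and removes photorespiratory hydrogen peroxide. Its wet arrays spanned 8.13 to 11.31 with a median of 9.94 and its dry arrays 8.69 to 12.21 with a median of 10.63, the widest range of any member. The mean rise was 0.74 ± 0.18 (adjusted p = 0.00186, and 6.77e-05 with replicate number as a block), with 8 accessions higher and 2 lower in dry leaves. It was 1.26 ± 0.28 in arrays of number 1 (adjusted p = 0.011) and 0.55 ± 0.14 in number 2 (adjusted p = 0.0224). In arrays of number 3 it was 0.38 ± 0.36 and did not pass (adjusted p = 0.68), with 5 of 10 accessions higher, and it did not pass without the Ler wet array of number 3 either (0.54 ± 0.36, adjusted p = 0.482). The background was 19.4% of loci called for drying in number 1, 17.6% in number 2 and 3.82% in number 3.

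CAT1 encodes a catalase known from pollen and seeds and from abscisic acid treatment. Wet arrays gave 6.89 to 9.79 with a median of 8.09, and dry arrays gave 7.52 to 9.06 with a median of 8.59. The highest value was again that of the Ler wet array of number 3, above all dry arrays. CAT1 differed by 0.38 ± 0.15 (adjusted p = 0.052; higher in 9 of 10 accessions), just outside the threshold. The adjusted p was 0.0141 without the Ler wet array of number 3, 0.0198 without the Col wet array of number 3, and 0.000291 with replicate number as a block, and leaving out 1 array brought the call in 19 of 59 fits. Within number 1 the difference was 0.60 ± 0.13 (adjusted p = 0.0105), within number 2 it was 0.49 ± 0.06 (adjusted p = 0.000799), and within number 3 it was 0.09 ± 0.21 (adjusted p = 0.898). Without the Ler wet array the number 3 value was 0.20 ± 0.20 (adjusted p = 0.675).

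CAT3, whose transcript is prominent around veins, was measured near the top of the scale, where the highest value of any locus was 14.06. Its wet arrays ranged from 12.27 over a median of 13.06 to 13.40 and its dry arrays from 12.20 over 13.13 to 13.39, which are nearly the same ranges. The difference was 0.08 ± 0.08 (adjusted p = 0.486; 8 of 10 accessions higher) and passed only in arrays of number 1 (0.20 ± 0.06, adjusted p = 0.0304). In the RefSeq gene table CAT1 and CAT3 are next to each other on chromosome 1. Signal shared between probes of the related catalase genes was not tested.

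With the accession as the unit, a two-sided exact sign-flip test of the 10 dry minus wet differences gave p = 0.00195 for APX1 and for APX3, the smallest value that 1024 sign patterns allow. It gave 0.00586 for SAPX and CAT1, 0.0156 for CAT2, 0.156 for CAT3, 0.729 for TAPX and 0.943 for APX2, all unadjusted. Related enzymes were also set against each other within accessions, in 5 differences picked after their values were seen. Their p-values, adjusted over the 5 or not, take no account of that choice and serve as description only. The APX3 change exceeded the APX1 change by 0.74 (SD 0.25) and in 10 of 10 accessions (p = 0.00195 by exact sign flips, 0.00488 adjusted over the 5). CAT2 exceeded CAT3 by 0.66 (SD 0.67) in 8 of 10 (exact p = 0.0215, adjusted 0.0269), and SAPX exceeded TAPX by 0.29 (SD 0.44) in 8 of 10 without passing (exact p = 0.0664).

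Other tissues and stages were followed by marker lists, whose counts are set beside 15.5% of all loci higher and 13.8% lower in dry leaves. Of the leaf markers, 3 of 4 rose with drying, with CA1, a carbonic anhydrase gene, higher by 0.87 ± 0.24 (adjusted p = 0.0048) and PSBO1, of photosystem II, by 0.27 ± 0.06 (adjusted p = 0.000506). Vascular markers moved both ways, 2 of 6 higher and 2 lower, with summed levels of 11.27 to 12.91 in wet and 10.72 to 12.85 in dry arrays. Senescence markers had 1 of 4 lower and none higher, with summed levels of 9.15 to 13.73 in wet and 8.24 to 13.31 in dry arrays. These ranges also hold differences between replicate numbers. Between numbers 3 and 1 SEN1 differed by 4.93 ± 0.37 and SAG13 by -1.20 ± 0.30, while SEN1 differed by 0.10 ± 0.73 with drying. Of the root markers 0 of 4 passed (1 at an unadjusted p under 0.05), and of the floral markers 0 of 5 (0 at an unadjusted p under 0.05), by limma. The part of these cell types in the changes of the 8 members was not tested.

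The next comparison asked whether drying acted differently in different accessions. No member passed the moderated F test of the interaction (0 of 8 by limma, and 0 at an unadjusted p under 0.05; the smallest adjusted p was 0.749, for APX2), where 0.270% of all loci passed. Dry minus wet within an accession passed in 0 of 80 cases by limma, against 1.12% over all loci and accessions, both at an adjusted p under 0.05. At an unadjusted p under 0.05 there were 14 of the 80, for which the share over all loci was not counted. With replicate number as a block 4 passed, APX3 in HR-5 (adjusted p = 0.0326) and NFA-10 (adjusted p = 0.0326) and CAT1 (adjusted p = 0.0107) and CAT2 (adjusted p = 0.0382) in SQ-8, against 2.49% over all loci and accessions in that fit. Dry and wet arrays did not overlap in 16 of 80, against 17.8%. The count of 16 was made of 7 for APX3, 3 each for SAPX and CAT2, and 1 each for APX1, APX2 and CAT1.

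The CAT2 estimates ranged most widely among accessions, but CAT2 also had the largest residual SD of the members (0.71, followed by CAT1 with 0.57). The CAT2 interaction did not pass (limma adjusted p = 0.81). In SQ-8 the CAT2 wet arrays read 10.15, 10.44 and 9.05 and the dry arrays 12.21, 10.79 and 10.93 (numbers 1, 2 and 3), a difference of 1.43 ± 0.58 (adjusted p = 0.149, and 0.0382 with the block). In KNOX-18 the wet arrays read 9.77, 10.03 and 8.22 and the dry arrays 11.79 and 10.32, a difference of 1.71 ± 0.65 (adjusted p = 0.418). Every dry array exceeded every wet one in these accessions and in NFA-10. In Ts-1 the wet arrays read 11.09, 10.66 and 10.07 and the dry arrays 9.83, 10.65 and 9.68, a difference of -0.55 ± 0.58 (adjusted p = 0.841), and the groups overlapped. Col had -0.01 ± 0.58, and Ler had 0.27 ± 0.58, or 0.75 ± 0.63 without its wet array of number 3. For CAT1 the range ran from -0.12 in Ler to 1.01 in SQ-8, where the wet arrays (7.29, 8.16 and 8.07) all lay below the dry arrays (8.80, 8.69 and 9.06). Without the Ler wet array of number 3 the CAT1 difference in Ler was 0.48 ± 0.48, and all 10 accessions were higher in dry leaves.

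**Figure D2:**
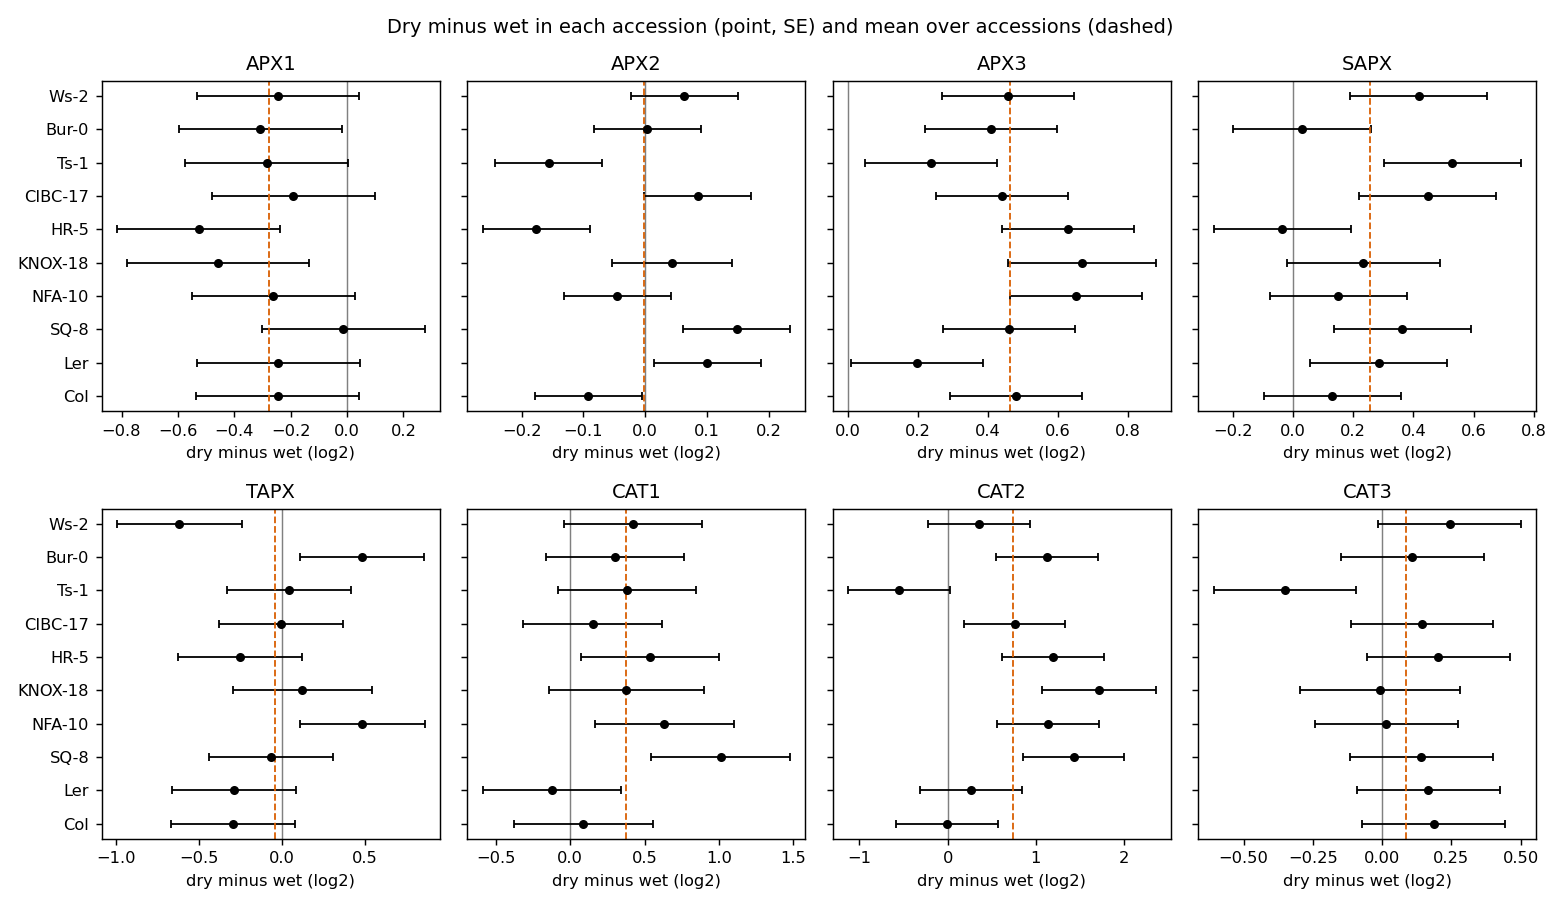
Dry minus wet (log2) for each of the 8 genes in each of the 10 accessions, each panel on its own scale, with points for the estimate, bars for its SE and a dashed line for the mean over accessions. All 10 APX3 points lie right of zero and all 10 APX1 points left of it, and the CAT2 points run from -0.55 in Ts-1 to 1.71 in KNOX-18.

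The accessions also differed in level, taken as the mean of wet and dry. In the moderated F test among the 10 accession means, SAPX (adjusted p = 0.000435), CAT2 (adjusted p = 0.0123), TAPX (adjusted p = 0.0278) and APX3 (adjusted p = 0.0288) passed, which is 4 of 8 members against 41.3% of all loci. APX1, APX2, CAT1 and CAT3 did not. With replicate number as a block CAT1 passed too (adjusted p = 0.0332), which is 5 of 8 members against 52.5% of all loci. With the arrays of each watering level fitted alone, CAT2 was the only member to pass in wet soil, where 12.7% of all loci passed, and SAPX the only one in dry soil, where 24.3% passed. Without the arrays of number 3, SAPX (adjusted p = 0.0534) and APX3 (adjusted p = 0.208) did not pass. Of the 45 pairs of accessions, 12 passed for SAPX, 4 for CAT2, 3 for APX3 and 2 for TAPX, and none for the other members, against 8.42% of all loci and pairs. Neighbours in the order of levels did not differ at the threshold for any member.

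For SAPX the order began with Bur-0 (7.70 ± 0.11) and Ler (7.58 ± 0.11), and ended with Ts-1 (6.97 ± 0.11) and NFA-10 (6.85 ± 0.11). The 6 Bur-0 arrays ran from 7.43 to 7.97 and the 6 NFA-10 arrays from 6.51 to 7.17, with no overlap. Bur-0 exceeded NFA-10 by 0.85 ± 0.16 (adjusted p = 0.000289), and it was part of 7 of the 12 pairs that passed. Ler was part of the remaining 5.

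CAT2 was highest in Col (11.14 ± 0.29) and lowest in HR-5 (9.53 ± 0.29) and Bur-0 (9.28 ± 0.29), with Ws-2, SQ-8, Ts-1, Ler, CIBC-17, KNOX-18 and NFA-10 between 10.60 and 10.07. In wet soil the Bur-0 arrays read 8.67, 8.59 and 8.90 and the Col arrays 11.31, 10.89 and 11.22. These groups lay far apart, while in dry soil Bur-0 (10.63, 10.21 and 8.69) and Col (11.92, 11.21 and 10.27) overlapped. Over both watering levels Col exceeded Bur-0 by 1.86 ± 0.41 (adjusted p = 0.000979) and HR-5 by 1.61 ± 0.41 (adjusted p = 0.00593). The F test among accessions passed for CAT2 in wet arrays alone and not in dry arrays alone (adjusted p = 0.565), and the difference between these results was covered by the interaction test, which did not pass (adjusted p = 0.81).

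TAPX was also highest in Col (8.93 ± 0.19) and lowest in NFA-10 (7.91 ± 0.19) and Bur-0 (7.86 ± 0.19), and the pairs that passed were Col against Bur-0 (1.07 ± 0.27, adjusted p = 0.00315) and Col against NFA-10 (1.02 ± 0.27, adjusted p = 0.00751). Its 6 Col arrays ran from 8.03 to 9.40 and its 6 Bur-0 arrays from 7.22 to 8.26, so they overlapped at the edge. APX3 ran from Col (10.20 ± 0.09) to NFA-10 (9.62 ± 0.09), and Col exceeded NFA-10 by 0.59 ± 0.13 (adjusted p = 0.0024). The F test of TAPX did not pass without Col wet 3 (adjusted p = 0.0694), Col dry 1 (0.0795), Col dry 2 (0.0613) or Bur-0 wet 2 (0.0508). That of APX3 did not pass without Col wet 2 (adjusted p = 0.055), Col wet 3 (0.0572), NFA-10 wet 1 (0.0927), NFA-10 dry 1 (0.0634) or NFA-10 dry 3 (0.0603).

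**Figure D3:**
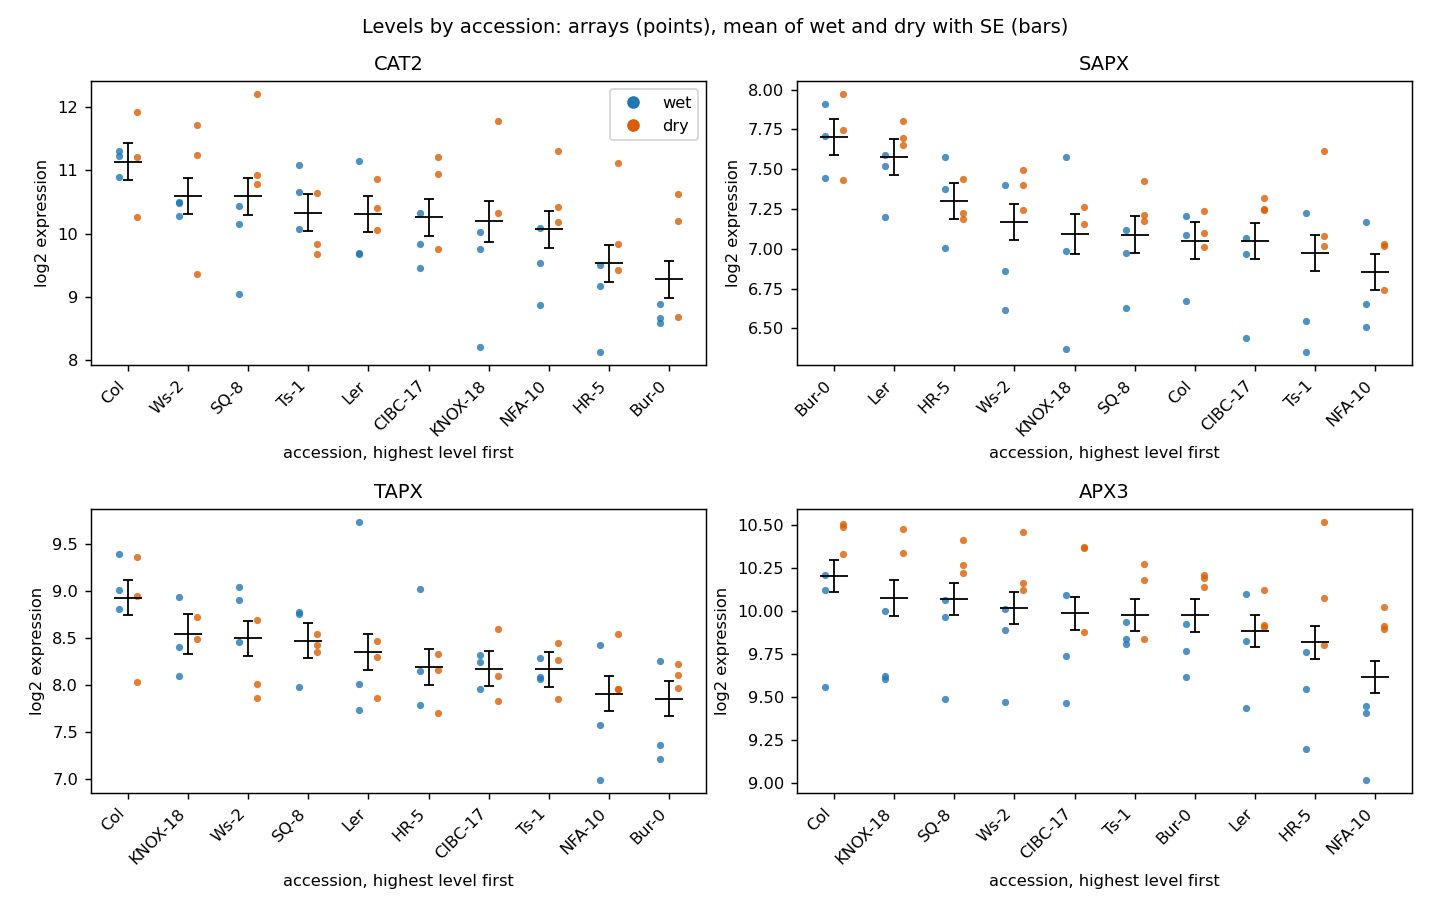
Log2 expression of CAT2, SAPX, TAPX and APX3 by accession, ordered from the highest to the lowest level, with 1 point per array (wet left, dry right of the mark) and bars for the mean of wet and dry with its SE. The wet CAT2 points of Bur-0 (8.59 to 8.90) lie far below those of Col (10.89 to 11.31), and the 6 SAPX points of Bur-0 lie above those of NFA-10.

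The replicate number is shared by all groups, so arrays of number 1, 2 and 3 were compared over all accessions and both watering levels. The catalases went in opposite directions: arrays of number 3 held more CAT1 and CAT3 and less CAT2 than arrays of number 1. Among the ascorbate peroxidases APX1 and SAPX were lower and APX3 was higher in number 3. In the moderated F test among numbers 6 of 8 members passed, all but APX2 (adjusted p = 0.0681) and TAPX (adjusted p = 0.684), against 30.0% of all loci. In the contrast of number 3 with number 1, 3 members were higher and 3 lower, against 30.4% of loci called (13.2% higher and 17.2% lower).

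CAT1 ran from 6.89 over a median of 7.62 to 8.80 in the 20 arrays of number 1, from 7.998 over 8.42 to 9.04 in the 19 of number 2, and from 7.96 over 8.60 to 9.79 in the 20 of number 3. Most arrays of number 1 lay below all arrays of the other numbers. Number 3 exceeded number 1 by 0.92 ± 0.10 (1.89-fold, adjusted p = 1.60e-09) and did so in 20 of 20 groups of accession and watering.

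CAT2 ran from 8.67 over a median of 10.75 to 12.21 in number 1, from 8.59 over 10.42 to 11.24 in number 2 and from 8.13 over 9.80 to 11.22 in number 3. These ranges overlapped, since accessions and watering levels also differ within them. Number 3 was lower than number 1 by a difference of -0.91 ± 0.17 (1.88-fold, adjusted p = 6.54e-05) in 18 of 20 groups. It was -1.35 in dry arrays alone and -0.47 in wet arrays alone, where it did not pass (adjusted p = 0.167), but without the Ler wet array of number 3 it was -0.68 ± 0.18 in wet arrays and passed (adjusted p = 0.0092). The interaction of watering and number, which tests that gap, did not pass for CAT2 either.

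CAT3 ran from 12.27 over a median of 12.81 to 13.03 in number 1, from 12.20 over 13.14 to 13.39 in number 2 and from 12.85 over 13.20 to 13.40 in number 3. Only the lower part of the number 3 range overlapped with number 1. Number 3 exceeded number 1 by 0.46 ± 0.07 (1.37-fold, adjusted p = 8.64e-07) in 19 of 20 groups. Within accessions, the CAT2 difference between these numbers lay below that of CAT3 by a mean of -1.36 (SD 0.68) in 9 of 10 and below that of CAT1 by -1.83 (SD 0.38) in 10 of 10. These are 2 of the 5 differences picked after their values were seen. Exact sign flips adjusted over the 5 gave p = 0.00651 and p = 0.00488, which take no account of that choice.

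**Figure D4:**
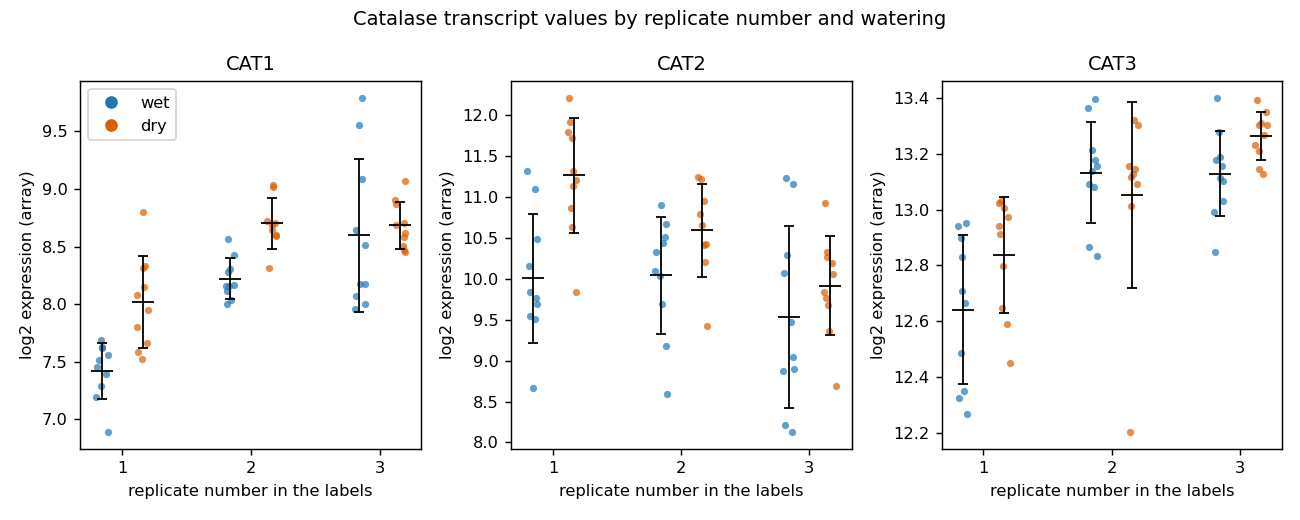
Log2 expression of CAT1, CAT2 and CAT3 by the replicate number in the labels, wet and dry side by side, each panel on its own scale, with 1 point per array (10 per column, 9 for number 2 dry) and bars for the mean with its SD. CAT1 and CAT3 are lowest in number 1, and CAT2 is lowest in number 3 and reaches its highest values in the dry arrays of number 1.

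Among the ascorbate peroxidases, APX1 ran from 10.82 over a median of 11.34 to 11.83 in number 1 and from 10.29 over 10.90 to 11.29 in number 3, a difference of -0.45 ± 0.09 (adjusted p = 9.44e-05; lower in 17 of 20 groups). APX3 differed by 0.23 ± 0.06 (adjusted p = 0.00322; higher in 14 of 20) and SAPX by -0.24 ± 0.08 (adjusted p = 0.0126; lower in 15 of 20). In wet arrays alone APX3 differed by 0.43 ± 0.07 (adjusted p = 5.47e-05) and SAPX by -0.39 ± 0.11 (adjusted p = 0.0117), where 10.8% of all loci were called higher and 14.4% lower in number 3. In dry arrays alone the APX3 difference was 0.04 ± 0.09 (adjusted p = 0.842) and the SAPX difference -0.09 ± 0.08 (adjusted p = 0.504), neither of which passed, where 8.50% were called higher and 10.8% lower.

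Core clock transcripts were measured on the same arrays, and 9 of 9 measured clock genes passed between the numbers, against 30.0% of all loci. The morning-phased LHY and CCA1 were lower in number 3 than in number 1 by -3.70 and -3.39 on the log2 scale, and the later-phased GI and PRR5 were higher by 1.84 and 1.20 and TOC1 by 0.83. In the Ler wet array of number 3 LHY read 5.98, the lowest of the 10 wet arrays of that number, beside the highest CAT1 value. The same array had a CAT2 value of 11.15, against a mean of 9.54 in the wet arrays of number 3. Its CAT3 value of 12.85 was the lowest of all arrays of number 3. With drying 1 of the 9 passed, ELF3 (higher by 0.47 ± 0.13, limma adjusted p = 0.00441), against 15.5% of all loci higher and 13.8% lower. LHY differed by -0.70 ± 0.49 without passing (adjusted p = 0.304) and was higher in 1 of 10 accessions. With the mean of CCA1 and LHY on each array as a covariate, CAT1 passed for drying (difference 0.30, adjusted p = 0.014). Within that covariate, LHY means were lower in dry than in wet arrays of each number, and CCA1 means in numbers 1 and 3 only. The part of harvest time in these differences was not tested, because the labels do not give it.

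Whether drying acted differently between the numbers was tested by an interaction term. APX3 was the only member that passed (adjusted p = 0.0421; 1 of 8, against 6.32% of all loci). Its rise was 0.70 ± 0.10 in number 1, 0.39 ± 0.06 in number 2 and 0.30 ± 0.06 in number 3, each of which passed on its own. In wet soil the APX3 medians of the numbers were 9.48, 9.86 and 9.97, and in dry soil 10.18, 10.22 and 10.16, so the numbers lay farther apart in wet than in dry soil. The interaction did not pass in 30 of the 59 fits with 1 array left out, the Ler wet 3 (adjusted p = 0.0579) and Col wet 3 (adjusted p = 0.0575) arrays among them. For CAT2 (adjusted p = 0.167), CAT1 (adjusted p = 0.161) and SAPX (adjusted p = 0.0966) it did not pass.

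The shares of each transcript's variation over the 59 arrays differ between members, although they take no account of degrees of freedom and so do not rank the factors. Watering held 44.8% of the variation of APX3 and 15.4% of that of CAT2. Accession held 45.8% for SAPX, 34.7% for TAPX and 30.7% for CAT2. Replicate number held 48.8% for CAT1, 45.5% for CAT3 and 27.3% for APX1.

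Further genes of hydrogen peroxide and ascorbate metabolism were taken from lists of known members, 55 genes outside the 8 of which 51 were measured. The counts for drying are set beside 15.5% higher and 13.8% lower over all loci. Among the genes related to APX, 2 of 3 rose with drying: APX4, also known as TL29, whose product sits in the thylakoid lumen, by 0.72 ± 0.14 (adjusted p = 0.000139) and APX6 by 0.41 ± 0.08 (adjusted p = 0.00014), each in 10 of 10 accessions. In the ascorbate-glutathione cycle 3 of 11 rose and 3 fell, with a median of -0.09. The monodehydroascorbate reductase genes, whose enzymes restore ascorbate, were split: MDAR2 fell by 0.73 and MDAR3 by 0.32, while MDAR6 rose by 0.45 and MDAR4, of the peroxisomal membrane, by 0.20. GSH2, which encodes glutathione synthetase, fell by 0.31.

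Of the ascorbate synthesis genes, 2 of 9 rose and 2 fell. VTC4, which encodes an L-galactose 1-phosphate phosphatase, rose by 0.66 ± 0.09 and GalDH, for L-galactose dehydrogenase, by 0.37 ± 0.11, while PMI1 fell by 0.46 and PMM by 0.28, both of the mannose phosphate steps before them. Among the other peroxidases 4 of 13 rose and 4 fell, with GPX1 higher by 0.66 and GPX7 by 0.59 (both chloroplast glutathione peroxidase-like) and GPX5 lower by 0.47 and GPX8 by 0.39. In photorespiration 3 of 11 rose and none fell. These were HPR1 (0.44), which encodes the peroxisomal hydroxypyruvate reductase, and GGT1 (0.29) and GGT2 (0.42), for glutamate:glyoxylate aminotransferases of the peroxisome. Of 4 genes whose products act on catalase, LSD1, a catalase-binding zinc finger protein, rose by 0.37 and NCA1, a chaperone needed for catalase activity, by 0.24.

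Between numbers 3 and 1 the same lists gave 5 of 11 lower and 1 higher in the ascorbate-glutathione cycle, 4 of 9 lower and 1 higher in ascorbate synthesis, 5 of 11 lower and 1 higher in photorespiration, and 4 of 13 lower and 2 higher among the other peroxidases. Of the 3 genes related to APX, 0 passed by limma (1 at an unadjusted p under 0.05). All 3 catalase partners that passed were higher, of 4 measured. The counts are set beside 17.2% lower and 13.2% higher over all loci, and no list was tested as a set.

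**Figure D5:**
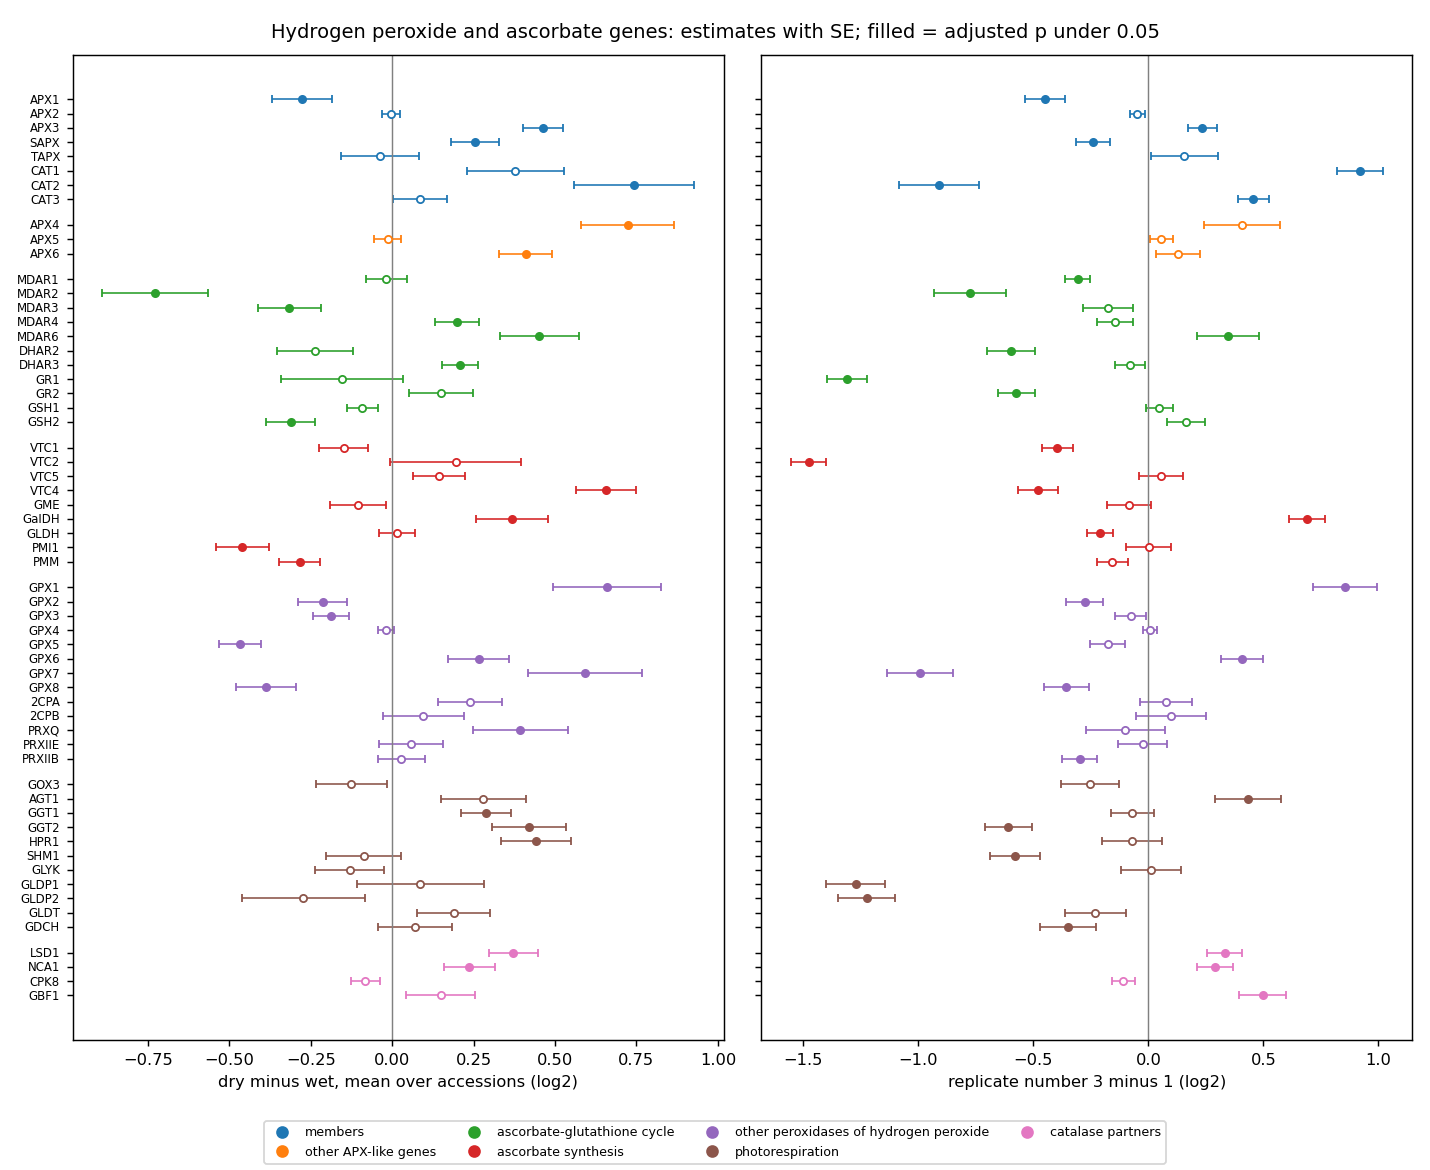
Estimates with SE for the 8 members and for related genes of 6 lists, as dry minus wet over accessions (left, log2) and as replicate number 3 minus 1 (right, log2), filled where the limma adjusted p is under 0.05. CAT2 and APX4 lie farthest right for drying and MDAR2 farthest left, and CAT1 and CAT2 lie on opposite sides at 0.92 and -0.91 in the right panel.

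The loci whose values followed each member most closely over the 59 arrays were found by Pearson's r over all loci, as a description, since the arrays share accession, watering and number. CAT2 was followed closely by AT1G30260 (r = 0.86) and HDR (0.84), which encodes the last enzyme of plastid isoprenoid precursor synthesis. CAT1 had WCRKC1 (0.87), of the thioredoxin family, ARP8 (0.87) and AT1G03610 (0.86) as its closest loci, and CAT3 had AILP1 (0.82), EIN3 (0.76), the ethylene transcription factor gene, and AT1G33970 (0.75). TAPX had the highest likeness of any member, with HCF136 (0.90), a photosystem II assembly factor gene, followed by AT4G02530 and AT4G34090 (0.86 each). APX3 was nearest to LOL1 (0.84), AT5G19940 (0.81) and DJ1D (0.80), APX1 to AT5G24810 (0.80), RRA3 (0.79) and CYTC-1 (0.78), and SAPX to AT4G34950 (0.74), RGD3 (0.73) and SDH1-1 (0.72). APX2, near background, reached no more than 0.54. For the 3 CAT3 loci r over the 20 group means was 0.53, 0.62 and 0.67, against 0.88, 0.81 and 0.81 with the group means taken out. The 3 APX3 loci went the other way, with 0.91, 0.86 and 0.87 over group means against 0.76, 0.73 and 0.66.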

How the data were processed

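The authors' deposited table holds log2 expression values for 20728 loci on 59 arrays of biotin-labelled cRNA. MAS5 and RMA are named in the submitters' processing notes, with no versions or roles. The sources used here do not give the array platform or the probe assignment. Values were used as deposited. Locus names came from RefSeq's gene table (TAIR10.1), which held 20546 of the loci. No sequences or coordinates are given, since the build behind the array is not stated.

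A model with 1 mean per group (20 groups, 39 residual degrees of freedom) was fitted to all loci with limma 3.58.1 in R 4.3.3, tested on simulated data. Each contrast was adjusted over all loci (Benjamini-Hochberg), and a locus passed at an adjusted p under 0.05. Replicate number entered added fits with the group means. Exact sign-flip tests used the 10 accessions as units. The 8 members, the lists and the tests were chosen with earlier results of these data known. From each list, at most 6 genes with the smallest adjusted p were open to naming, and 3 loci most like each member; 1 of these is not reported here. There is no read depth in array data, and precision is limited by the number of arrays. The labels call the replicates biological.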

Additional observations from a re-analysis of the deposited data

Results flagged for a closer look

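The dry minus wet difference of APX3 differed among replicate numbers, by the moderated F test of the interaction (limma adjusted p = 0.0421). It was 0.70 in arrays of number 1, 0.39 in number 2 and 0.30 in number 3, and the difference between numbers 3 and 1 was -0.40 ± 0.11 (adjusted p = 0.0222). The call was absent in 30 of 59 fits with 1 array left out.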

How the results depend on the processing

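The alternatives were other scalings and filters, a trend and robust prior, array weights (whose estimation did not converge), the replicate block, subsets of numbers or of watering, a CCA1 and LHY covariate (added after the data were seen) and leaving out each array. Same-numbered wet and dry arrays correlated above 0.1 in 24 of 29 pairs (lowest -0.20, median 0.28, against -0.12 for different numbers). The labels do not say what a number marks, so the main fit left it out and differences between numbers stayed in its residual spread. The replicate block takes them out. With the replicate block, 5 members passed for drying (CAT1 added, 0.39, adjusted p = 0.000291), 5 among accessions (CAT1 added, adjusted p = 0.0332) and 4 within accessions (APX3 in HR-5 and NFA-10, CAT1 and CAT2 in SQ-8). Calls over all 20728 loci rose as well with the block, from 6069 to 7083 for drying and from 8565 to 10872 among accessions. The count of 4 for drying was 2 in number 3 alone (SAPX with adjusted p = 0.0557 there without Ler wet 3) and 4 to 5 with 1 array left out. Without replicate 3, APX1 (adjusted p = 0.089) and SAPX (adjusted p = 0.119) did not pass for drying. The count of 4 among accessions was 2 without replicate 3, 1 in wet arrays alone, 1 in dry arrays alone and 2 to 4 with 1 array left out (2 without Col wet 3). The count of 6 among numbers was 3 in dry arrays alone and 6 to 7 with 1 array left out. The count of 1 for drying by number was 0 with the trend and robust prior, 0 with array weights and 0 to 2 with 1 array left out. The count of 0 within accessions was 5 with array weights, 2 with the covariate, 1 without replicate 3 and 0 to 1 with 1 array left out. The interaction with accession held no member in any alternative; over all loci its 56 calls were 1407 with array weights, 97 with the block and 7 without replicate 3. Calls within accessions over all loci (2325) were 13228, 5160 and 1269 in the same order and 4139 with the covariate. Calls among accessions (8565) were 12900 with array weights, 2625 in wet and 5038 in dry arrays. Those for drying (6069) were 4028, 3654 and 792 in numbers 1, 2 and 3 alone, those among numbers (6223) 3331 in dry arrays, and those for drying by number (1311) 862 with array weights. No direction that passed was reversed in the alternatives run. APX2 has no value where the 25% of loci with the lowest means were left out.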

Other observations

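Among regulators and markers of the heat and high light response, the conditions known to induce APX2, 1 of 12 measured genes rose with drying and 1 fell, against 15.5% of all loci higher and 13.8% lower, while APX2 stayed near background. HSFA1B, a heat shock factor gene, rose by 0.34 ± 0.08 (limma adjusted p = 0.00134; 10 of 10 accessions) and ELIP2, a light stress marker, fell by 0.30 ± 0.12 (adjusted p = 0.0432; lower in 10 of 10). The ELIP1 difference of -0.56 ± 0.36 missed the threshold (adjusted p = 0.257), and it was lower in 10 of 10 accessions. Between replicate numbers 3 and 1, 3 of the 12 were higher and 3 lower, against 13.2% and 17.2% of all loci.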
